A study of Rattus norvegicus with 3 samples.

Results

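The cytochrome P450 genes of the rat thoracic aorta were described on 3 oligonucleotide arrays. A gene was taken as a member when a probe set carried its symbol alone in the platform annotation and the symbol was Cyp followed by a digit. The lanosterol demethylase Cyp51 was left out, since it belongs to cholesterol synthesis. This gave 48 genes with 79 probe sets, of 4736 genes with 7006 probe sets named in this way. A further 13 probe sets were assigned to several genes at once, at least 1 of them a P450, and were not used.

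The RNA came from Sprague Dawley rats, and each group had 1 array. The control rats received water at 1 ml/kg, and the other groups received allylamine at 35 mg/kg or at 70 mg/kg, each for 20 days. Allylamine is an amine that vascular amine oxidase turns into the reactive aldehyde acrolein. The sources used here do not say whether RNA of 1 animal or of a pool was hybridised, nor give the animals' age and sex. No difference below has a replicate check or a test, and in whole aorta a lower number of cells of a type and less RNA per cell cannot be told apart.

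Cytochromes P450 are heme enzymes that insert oxygen into their substrates with electrons from NADPH, passed on by P450 reductase and cytochrome b5 in the endoplasmic reticulum and by adrenodoxin in mitochondria. Family 4 hydroxylates fatty acids, including arachidonic acid to a constrictor of small arteries, and the epoxygenases of family 2 make epoxides that relax vessels. Families 1, 2 and 3 oxidise drugs and pollutants, mostly in liver, while families 11, 17, 19 and 21 make steroid hormones and the others named below handle bile acids, vitamin D and retinoic acid.

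Values are intensities, scaled so that each array had the same median, 267. Values at or below a floor of 188, the 40th percentile of all scaled values, were treated as too low to compare. A probe set was measured when both arrays compared read above the floor. A gene's difference is the median log2 difference over its measured probe sets, and a gene is counted as higher or lower when that difference is at least 2-fold. A gene's level is the median on the log2 scale over all its probe sets, so a gene's level and its difference can rest on different probe sets. Intensities of different probe sets cannot be set against each other as amounts of RNA.

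The arrays differed in ways that touch every comparison. Labelled control transcripts spiked into each hybridisation exceeded their signal on the control array by medians, over 9 probe sets, of 3.81-fold (35 mg/kg) and 28.8-fold (70 mg/kg). The span from the 5th to the 95th percentile of log2 values was 6.58, 6.16 and 5.22 on the control, 35 mg/kg and 70 mg/kg arrays. The part of these differences in the values below was not tested. The labelled tissue was checked against its markers: of 9 smooth muscle genes on the array, 5, 4 and 7 lay above the array median on the 3 arrays in that order, and of 5 endothelial genes 4, 3 and 4 did. Of all genes 49.1%, 48.9% and 49.5% lay above the array median on these arrays. These markers of the aortic wall were thus spread around the array median and did not lie together above it.

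Taken over all its probe sets, the P450 family had about the share of bright genes that the array had. On each of the 3 arrays 25 of 48 genes, 52.1%, lay above the array median, where 49.1%, 48.9% and 49.5% of all genes did (control, 35 mg/kg, 70 mg/kg). The equal counts did not come from equal genes. The control and 35 mg/kg arrays shared 18 of their 25, the control and 70 mg/kg arrays 17, and the dosed arrays 20. These overlaps were not counted over all genes, so they cannot be read as a trait of the family. On all 3 arrays 16 P450 genes (33.3%) were above the median, beside 26.1% of all genes, and on none of them 12 (25%), beside 26.8% of all genes. These shares are near those of all genes. With only the 25 probe sets that carry no suffix letter for shared or relaxed probe choice, 22 genes remained, and 6 (27.3%), 9 (40.9%) and 8 (36.4%) lay above the median on the control, 35 mg/kg and 70 mg/kg arrays, beside 50.1%, 47.5% and 47.5% of all genes kept in this way.

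**Figure D1:**
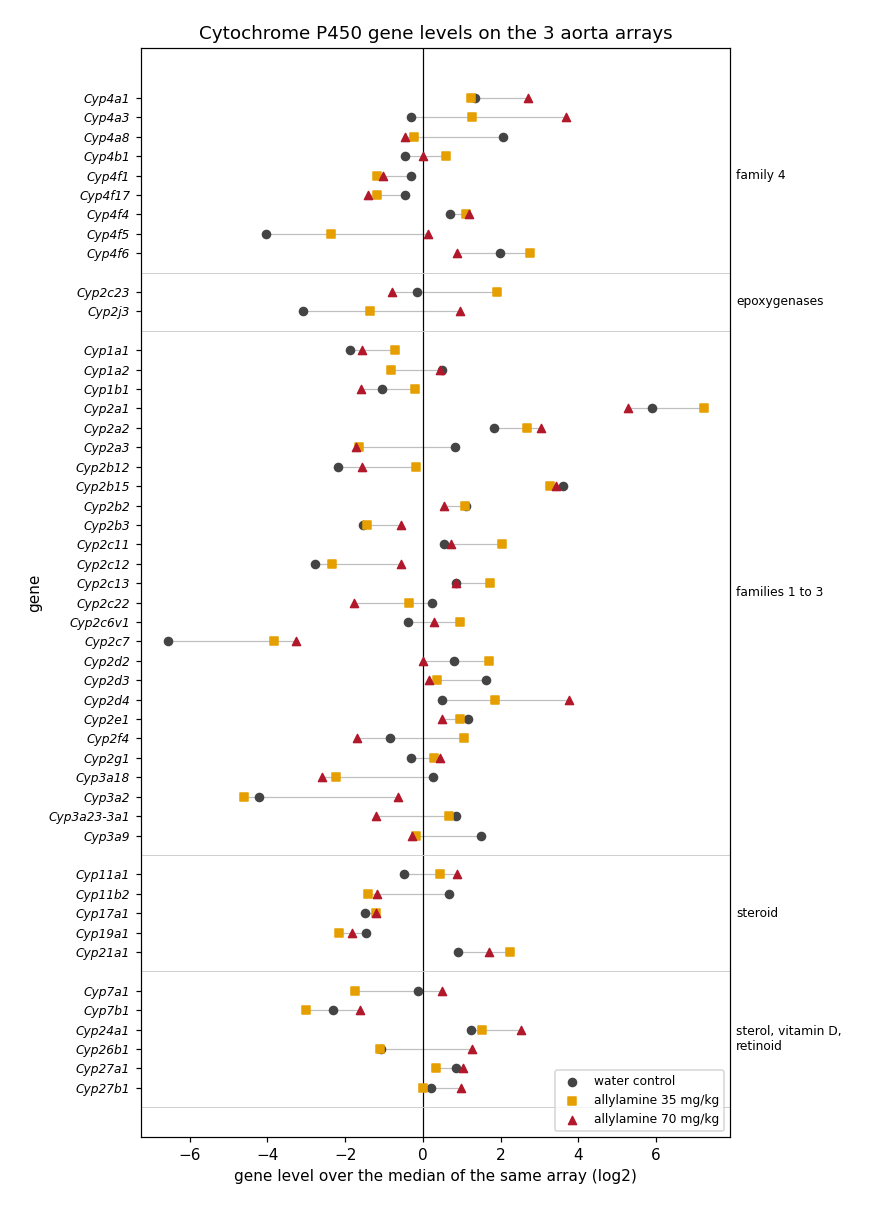
Level of each of the 48 P450 genes for water control (circles), 35 mg/kg (squares) and 70 mg/kg (triangles), as log2 over the median of the same array, with the gene groups named at the right. On each array 25 genes lie right of the line at 0, and most genes cross it or shift along it between arrays.

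Family 4, the fatty acid hydroxylases, held 9 genes, of which 4, 5 and 5 lay above the median on the control, 35 mg/kg and 70 mg/kg arrays. The shares of all genes were 49.1%, 48.9% and 49.5%. Cyp4a1, Cyp4f4 and Cyp4f6 lay above the median on all 3. The xenobiotic genes that did so were Cyp2a1, Cyp2a2, Cyp2b15, Cyp2b2, Cyp2c11, Cyp2c13, Cyp2d3, Cyp2d4 and Cyp2e1. They are 9 of the 26 genes in that group (34.6%, beside 26.1% of all genes), and all belong to family 2. Only Cyp2a2 was above the median on all 3 arrays on a probe set without a suffix letter. The others had suffixed probe sets alone, except Cyp2d4, whose unsuffixed probe set read 142 in the control. None of the 3 genes of family 1 nor of the 4 of family 3 was above the median on all 3 arrays. Of the steroid hormone genes only Cyp21a1, the adrenal 21-hydroxylase, was above it throughout. Of the 6 sterol, bile acid, vitamin D and retinoid genes Cyp24a1, Cyp27a1 and Cyp27b1 were. With Cyp7a1 and Cyp26b1 the group came to 5 of 6 (83.3%) at 70 mg/kg, beside 49.5% of all genes.

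In the order control, 35, 70 mg/kg, 7 P450 levels (14.6%) increased at each step, where 11.8% of all genes did, and 7 (14.6%) decreased, where 13.3% of all genes did. Levels below the floor were set to it for this count and have no order among themselves. Those increasing were Cyp4a3, Cyp4f4, Cyp2a2, Cyp2d4, Cyp2g1, Cyp11a1 and Cyp24a1. Those decreasing were Cyp4a8, Cyp2b2, Cyp2c22, Cyp2d3, Cyp2e1, Cyp3a23-3a1 and Cyp3a9. For Cyp24a1, Cyp2e1 and Cyp3a23-3a1 the order of levels goes against a measured difference given below, and the probe sets of each disagree.

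The promoters of 5 of these genes are shown because they include pairs of paralogues that were 2-fold higher and 2-fold lower than control at both doses, Cyp4a3 with Cyp4a8 and Cyp2d4 with Cyp2d3, together with the epoxygenase Cyp2j3, all chosen after their values were seen. RefSeq sequences of the GRCr8 assembly, 250 bases before to 50 after the gene's start, were found for 36 of the 48 genes. Capitals mark matches on either strand to 5 motifs. These are TATAAA, known as the TATA box, the promoter box spelled CCAAT, the dioxin response core spelled GCGTG, the core AGGTCA bound by many nuclear receptors, and GTTAAT, a core of sites of the liver factor HNF1. None of these motifs is contained in another. All 5 windows are written 5′ to 3′ in the direction of the gene.
Cyp4a3, GRCr8 chr5:134352187-134352486, minus strand: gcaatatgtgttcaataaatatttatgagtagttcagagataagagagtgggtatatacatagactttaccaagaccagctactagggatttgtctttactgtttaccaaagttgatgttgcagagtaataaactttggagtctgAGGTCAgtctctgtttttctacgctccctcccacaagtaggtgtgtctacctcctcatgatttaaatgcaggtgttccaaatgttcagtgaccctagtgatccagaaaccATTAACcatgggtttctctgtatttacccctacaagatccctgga
Cyp4a8, GRCr8 chr5:133970177-133970476, minus strand: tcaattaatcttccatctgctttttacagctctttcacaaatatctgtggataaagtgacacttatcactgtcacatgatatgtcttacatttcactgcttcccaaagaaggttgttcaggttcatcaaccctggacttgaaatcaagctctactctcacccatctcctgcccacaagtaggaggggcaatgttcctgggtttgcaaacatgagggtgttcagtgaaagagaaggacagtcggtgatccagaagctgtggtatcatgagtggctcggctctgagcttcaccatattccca
Cyp2d4, GRCr8 chr7:115771772-115772071, minus strand: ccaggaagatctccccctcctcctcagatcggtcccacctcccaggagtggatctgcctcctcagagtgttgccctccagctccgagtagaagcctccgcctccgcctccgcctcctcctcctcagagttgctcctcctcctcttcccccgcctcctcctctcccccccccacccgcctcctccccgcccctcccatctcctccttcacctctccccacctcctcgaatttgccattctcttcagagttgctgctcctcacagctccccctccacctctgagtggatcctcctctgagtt
Cyp2d3, GRCr8 chr7:115802093-115802392, minus strand: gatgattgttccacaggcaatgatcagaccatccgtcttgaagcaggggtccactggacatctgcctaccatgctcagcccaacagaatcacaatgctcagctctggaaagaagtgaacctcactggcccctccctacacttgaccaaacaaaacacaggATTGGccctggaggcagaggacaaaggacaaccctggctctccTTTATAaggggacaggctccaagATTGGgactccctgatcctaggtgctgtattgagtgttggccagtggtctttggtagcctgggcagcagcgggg
Cyp2j3, GRCr8 chr5:116360450-116360749, minus strand: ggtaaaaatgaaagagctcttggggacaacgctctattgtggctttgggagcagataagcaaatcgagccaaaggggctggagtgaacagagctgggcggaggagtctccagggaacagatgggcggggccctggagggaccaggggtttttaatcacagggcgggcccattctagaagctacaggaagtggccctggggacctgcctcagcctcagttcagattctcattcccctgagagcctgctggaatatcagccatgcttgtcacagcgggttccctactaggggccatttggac

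In the Cyp4a3 window AGGTCA began at -105 from the start and the reverse of GTTAAT at 6, while the Cyp4a8 window held none of the 5 motifs. The Cyp4a3 and Cyp4a8 windows were identical at 64% of 300 bases after global alignment, against a median of 58.7% over all 630 pairs of P450 windows. Cyp2d3 had the TATA box reversed at -47 and CCAAT reversed at -90 and at -24, and the Cyp2d4 window, of which 74.3% is C or T, held none. The Cyp2d3 and Cyp2d4 windows were identical at 55.3%, below the median pair. The Cyp2j3 window held none of the motifs. Over the 36 P450 windows AGGTCA occurred in 13 (36.1%), against 16.2% of 33469 windows of the same length, TATAAA in 12 (33.3%) against 14.2%, CCAAT in 16 (44.4%) against 37.5%, GTTAAT in 5 (13.9%) against 7.45% and GCGTG in 6 (16.7%) against 29.7%. Windows of some close paralogues are alike, and the highest identities of the 630 pairs were 84.7% for Cyp3a2 with Cyp3a23-3a1 and 77% for Cyp2b12 with Cyp2b15. The motif counts are thus not of independent sequences. A match is no evidence of a working site.

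At 35 mg/kg, 29 of the 48 genes could be compared with control. Of these 9 (31%) were at least 2-fold higher, beside 16.8% of all 2606 genes compared, and 4 (13.8%) at least 2-fold lower, beside 16.3%. The median difference was 0.77, and 0.04 over all genes. It was 0.43 after quantile normalization and with the deposited values, and 0.00 when all 48 genes were kept with low values raised to the floor, a setting chosen after the data had been seen. Among the rest, 1 gene cleared the floor at 35 mg/kg alone by at least 2-fold and 3 did so in the control alone. Over all genes without a measured difference these shares were 9.72% and 12.3%.

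At 70 mg/kg, 30 of the 48 genes could be compared with control, of which 8 (26.7%) were at least 2-fold higher, beside 19.7% of all 2462 genes compared, and 6 (20%) at least 2-fold lower, beside 23.2%. The share higher was below that of all genes in some other settings, at 21.4% beside 22.1% with the deposited values, 21.4% beside 22.2% with a common trimmed mean, 17.8% beside 24.1% with the floor at the 5th percentile and 14.6% beside 15.7% with low values raised to the floor. The deposited arrays already had nearly equal trimmed means, so the deposited values and a common trimmed mean were nearly the same scaling. The median difference was 0.21, and -0.06 over all genes. Another 2 genes cleared the floor at 70 mg/kg alone by at least 2-fold and 1 did so in the control alone, where 16.3% and 16.7% of all such genes did. The doses share their control array, so a gene's values at the doses are not independent.

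**Figure D2:**
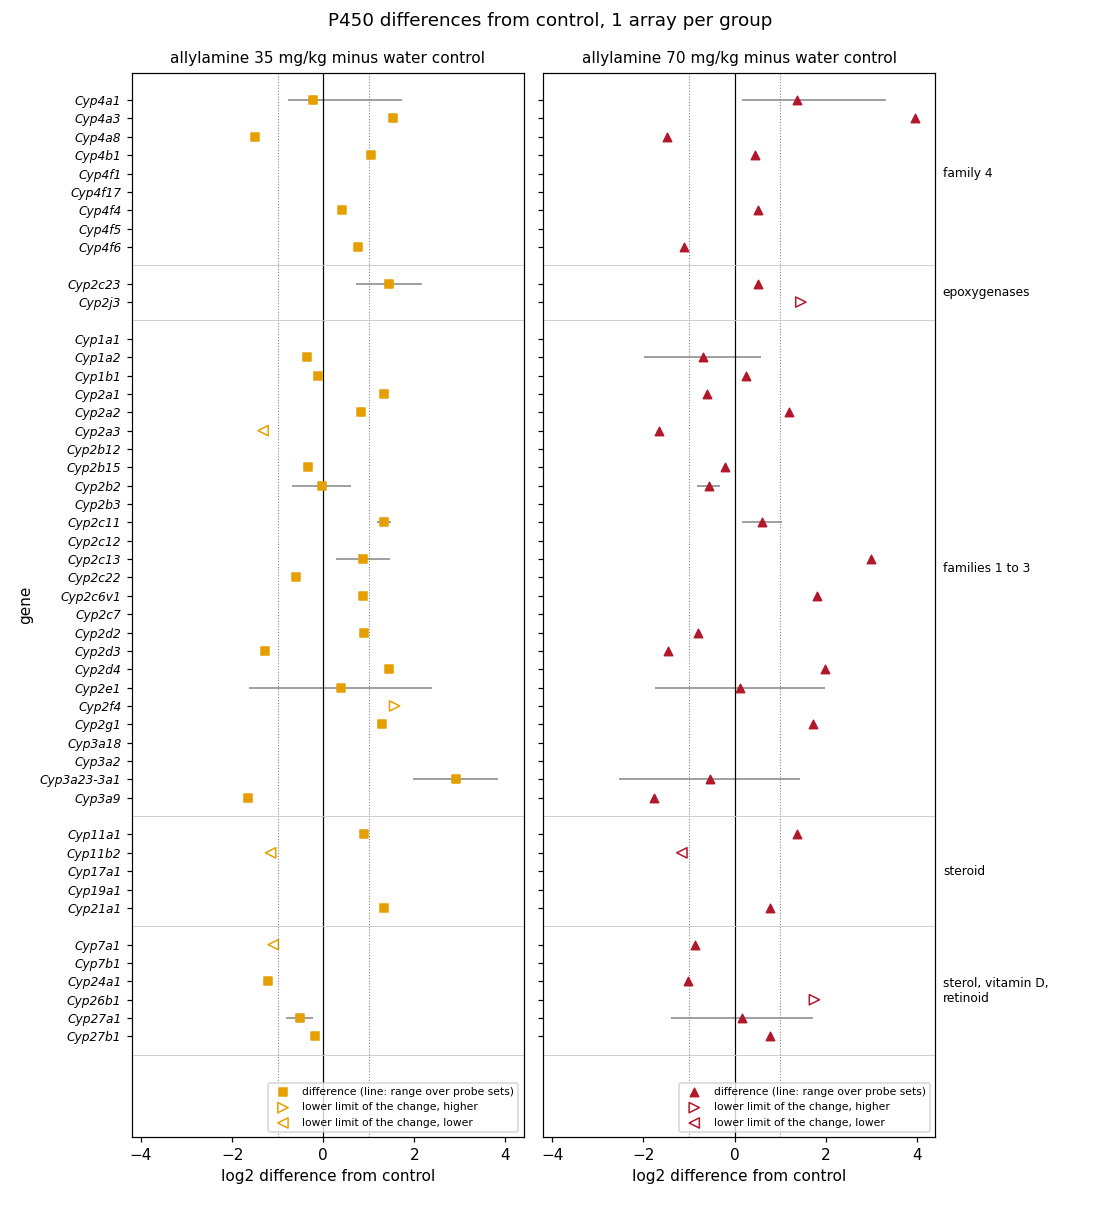
Log2 difference from the water control of each P450 gene at 35 mg/kg (left) and 70 mg/kg (right), with a line from the lowest to the highest measured probe set and dotted lines at 2-fold. Open triangles are lower limits for genes that cleared the floor on a single array. Genes without a symbol were not measured, and the 9 higher and 4 lower genes at 35 mg/kg and the 8 and 6 at 70 mg/kg lie outside the dotted lines.

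In family 4, Cyp4a3 and Cyp4a8 differed from control in opposite directions at both doses. Cyp4a3, a fatty acid hydroxylase, read 217, 634 and 3407 in the order control, 35 and 70 mg/kg on its 1 probe set, differences of 1.54 and 3.97. The measured probe set of Cyp4a8 read 812, 285 and 291, differences of -1.51 and -1.48, and its other probe set read 1557, 185 and 128, below the floor on both dosed arrays. Both Cyp4a8 probe sets were thus highest in the control.

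Cyp4a1, the hydroxylase induced by peroxisome proliferators in rat liver, had 3 probe sets above the floor on every array. The first read 190, 626 and 1905 on the control, 35 mg/kg and 70 mg/kg arrays. The next read 672, 391 and 1722, and the last 1218, 1037 and 1367. All 3 were highest at 70 mg/kg, but by amounts from 0.17 to 3.33, with a median of 1.36. With the deposited values the difference was 0.91, and with the brightest probe set alone it was 0.17. At 35 mg/kg the gene's difference was -0.23.

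Cyp4b1, which activates furans and other small toxicants in lung, read 195, 402 and 264 and was higher at 35 mg/kg by 1.04 from a control value just above the floor. Of the subfamily 4F, whose members oxidise leukotrienes and arachidonic acid, Cyp4f4 read 430, 573 and 610, less than 2-fold from control at either dose. Cyp4f6 read 1063, 1810 and 490, a difference of 0.77 at 35 mg/kg and -1.12 at 70 mg/kg. With the deposited values the Cyp4f6 difference at 70 mg/kg was -0.97. Cyp4f1 (217, 117 and 130) and Cyp4f17 (195, 117 and 99.4) lay above the floor in the control only. Cyp4f5 read 16.2, 51.6 and 292, clearing the floor at 70 mg/kg alone, by less than 2-fold. In all, 6 of the 9 genes were measured at each dose, 2 higher and 1 lower at 35 mg/kg and 2 higher and 2 lower at 70 mg/kg. Over all genes compared, 16.8% were higher and 16.3% lower at 35 mg/kg, and 19.7% and 23.2% at 70 mg/kg.

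Of the arachidonate epoxygenases of family 2, Cyp2j3, which is expressed in rat heart, had 3 probe sets, all below the floor in the control and all above it at 70 mg/kg. In the order control, 35 and 70 mg/kg they read 31.3, 103 and 282, then 8.32, 281 and 623, and last 75.8, 104 and 517. Each probe set was highest at 70 mg/kg, while all control readings and 2 of 3 at 35 mg/kg were too low to be ordered. With the control at the floor the gene was higher at 70 mg/kg by at least 2.74-fold. Cyp2c23, the main epoxygenase of rat kidney, had a different pattern. Its probe sets read 603, 994 and 856, then 239, 1069 and 142, and last 90.1, 589 and 153, so all 3 were highest at 35 mg/kg. The difference was 1.44 at 35 mg/kg over 2 probe sets (0.72 to 2.16) and 0.51 at 70 mg/kg on 1. With the brightest probe set alone it was 0.72 at 35 mg/kg.

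**Figure D3:**
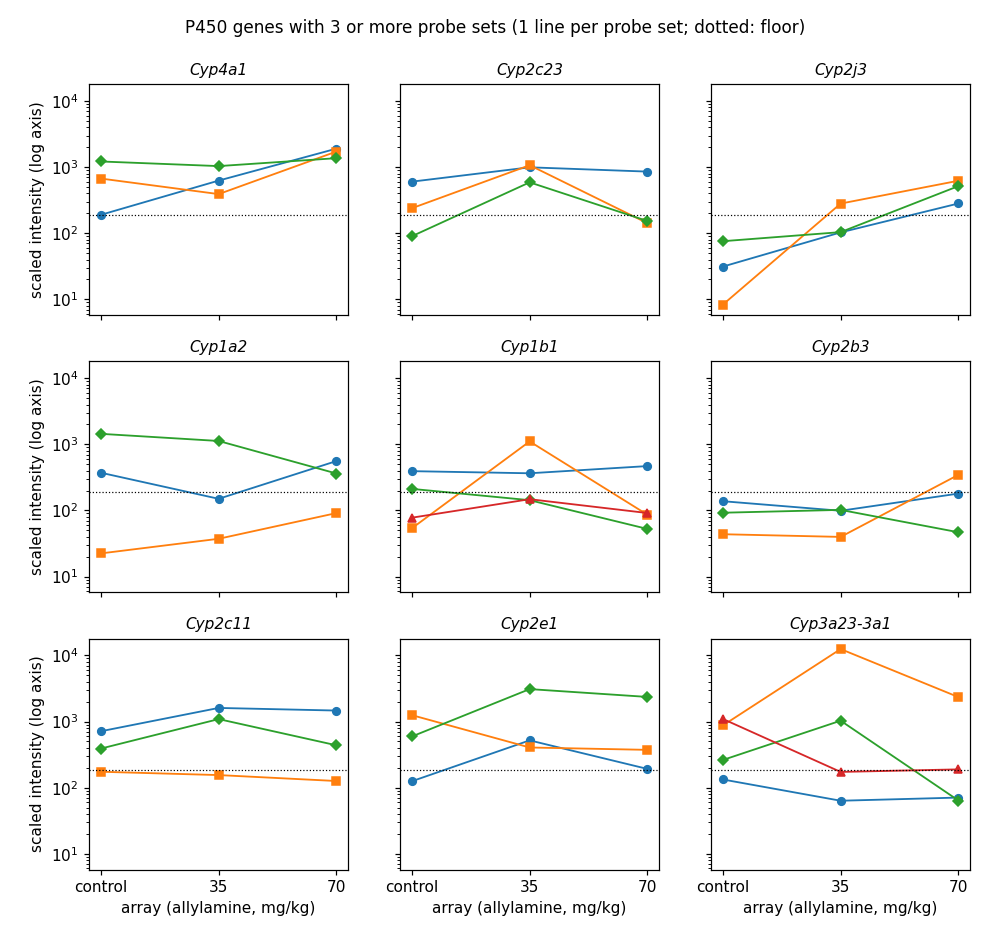
Scaled intensity on a log axis on the control, 35 mg/kg and 70 mg/kg arrays for the 9 P450 genes with 3 or more probe sets, 1 line per probe set, with the floor of 188 dotted. The lines of Cyp2j3 all begin below the floor and end above it, and those of Cyp2c23 all peak at 35 mg/kg, while those of Cyp1a2, Cyp2e1 and Cyp3a23-3a1 cross.

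Of the xenobiotic genes, 17 of 26 were measured at each dose. At 35 mg/kg 5 (29.4%) were at least 2-fold higher and 2 (11.8%) lower, beside 16.8% and 16.3% of all genes compared. At 70 mg/kg 5 (29.4%) were higher and 3 (17.6%) lower, beside 19.7% and 23.2%. In family 1, whose genes answer to the aryl hydrocarbon receptor, no gene reached 2-fold. Cyp1a1, the most inducible of them, read 72.3, 162 and 89.7, below the floor throughout. Cyp1b1, the family member usually found in vascular smooth muscle, read 393, 365 and 469 on its 1 probe set above the floor on every array. Another probe set from the same Cyp1b1 accession read 53.7, 1107 and 86.1. The probe sets of Cyp1a2, a liver enzyme, read 1442, 1124 and 362, then 372, 150 and 559, and last 22.4, 37.3 and 91.3. At 70 mg/kg the first differed from control by -1.99 and the next by 0.59.

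Subfamily 2D also held genes with opposite differences. Cyp2d4, the form found in rat brain, read 972, 2661 and 3874 on 1 probe set, differences of 1.45 and 1.99, and 142, 351 and 3362 on the other, which was below the floor in the control. Both probe sets increased with dose. Cyp2d3 read 826, 340 and 298, differences of -1.28 and -1.47. Cyp2d2, the debrisoquine hydroxylase of rat liver, read 464, 866 and 265, within 2-fold of control at both doses.

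Subfamily 2C holds sex-dependent liver steroid hydroxylases. The male form Cyp2c11 read 713, 1606 and 1466 on 1 probe set and 390, 1089 and 437 on another, with its last below the floor on all arrays. It was higher at 35 mg/kg by 1.33 (1.17 to 1.48) and at 70 mg/kg differed by 0.60 (0.16 to 1.04). Cyp2c13 had probe sets that parted at 70 mg/kg. One read 251, 697 and 2017 and the other 918, 1114 and 113, so its difference of 3.0 at 70 mg/kg rests on the first alone and was -0.01 with a floor at the 25th percentile. Cyp2c6v1 was higher at 70 mg/kg by 1.81 on the probe set that read 475, 876 and 1662, while the other read 86.9, 304 and 63.2. Cyp2c22 read 311, 207 and 78.4. The female form Cyp2c12 had levels of 38.9, 52.5 and 179, and Cyp2c7 read 2.81, 18.7 and 27.7.

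The brightest P450 probe set on every array was that of Cyp2a1, a testosterone hydroxylase of liver, at 15673, 39801 and 10342. This probe set carries a suffix letter for shared or relaxed probe choice. It was higher at 35 mg/kg by 1.34, but by 0.33 after quantile normalization, and differed by -0.60 at 70 mg/kg. Cyp2a2 read 958, 1703 and 2193 and was higher at 70 mg/kg by 1.19. Cyp2a3, the olfactory and lung form, was lower on both probe sets, which read 641, 161 and 203, and 346, 45 and 32.5. At 35 mg/kg both were below the floor, with a median lower limit of 2.5-fold over the pair, and at 70 mg/kg the difference was -1.66 on the first. Cyp2g1, an olfactory form, was higher by 1.29 and 1.73 on a probe set that read 397, 970 and 1319. Its other probe set stayed below the floor at 115, 110 and 100, and with a floor at the 5th percentile the differences were 0.61 and 0.77. Cyp2f4, which activates naphthalene in lung, read 149, 557 and 82.8, at least 2.96-fold higher at 35 mg/kg.

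Subfamily 2B differed little where it was measured. Cyp2b15 read 3259, 2575 and 2846, differences of -0.34 and -0.20. Cyp2b2 had probe sets reading 765, 476 and 433 and 432, 662 and 347, with a median difference of -0.03 at 35 mg/kg and -0.57 at 70 mg/kg. The levels of Cyp2b12 (58.8, 234 and 89.9) and Cyp2b3 (92.4, 98.9 and 180) lay below the array median on all 3 arrays. Cyp2e1, the ethanol-inducible form, had probe sets that disagreed. One read 1250, 405 and 373, another 594, 3095 and 2356 and the last 125, 519 and 192, so that its differences of 0.38 and 0.12 are medians of values from -1.63 to 2.38 at 35 mg/kg and from -1.74 to 1.99 at 70 mg/kg.

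In family 3, the main drug-oxidising family of liver, Cyp3a9 read 751, 237 and 220 and was lower at both doses, by differences of -1.66 and -1.77. Cyp3a18 read 321, 56.4 and 44.3, above the floor in the control only and less than 2-fold above it. Cyp3a2 read 14.5, 10.9 and 170, below the floor throughout. Cyp3a23-3a1 had the largest difference of the family at 35 mg/kg, 2.91, from 2 probe sets of the same accession that read 872, 12486 and 2344 and 262, 1030 and 63.9. Both carry a suffix letter, i and r in that order. Another probe set read 1095, 173 and 189, the opposite course, and the last 133, 63.4 and 70.8. With the floor lowered to the 5th percentile, which brings in all 4, the difference at 35 mg/kg was 0.45. At 70 mg/kg the difference of Cyp3a23-3a1 was -0.55 (-2.53 to 1.43). It was 1.86 after quantile normalization and 1.43 with the brightest probe set alone.

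The hepatocyte markers were read beside these liver-type P450 genes. Of 13 hepatocyte genes on the array 5, 4 and 6 lay above the median on the control, 35 mg/kg and 70 mg/kg arrays, beside 49.1%, 48.9% and 49.5% of all genes. Albumin, the most abundant hepatocyte transcript, had levels of 227, 252 and 285, close to the array median of 267. Hemopexin (Hpx, 867, 541 and 569) and the apolipoprotein Apoa1 (657, 338 and 522) lay above it on all 3 arrays. Apoh, Fgb, Fgg, Cps1 and Tat lay below it on all 3. Of the 9 hepatocyte genes measured at 35 mg/kg none was 2-fold higher or lower. Of the 8 measured at 70 mg/kg 2 were higher and 1 lower, beside 19.7% and 23.2% of all genes compared. The higher were albumin, by 1.03 on 1 of its 4 probe sets, and Fga, by 1.19. The lower was Serpina1, at -1.43 on 1 of its 3 probe sets. Fgg, with no probe set measured at 70 mg/kg, was lower there by at least 5.68-fold on 1 of its 2 probe sets. Of all genes without a measured difference at 70 mg/kg, 16.7% were at least 2-fold lower in this way. The part of liver RNA in the P450 values was not tested.

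The steroid hormone group held 5 genes with 1 probe set each. Cyp11a1, the side-chain cleavage enzyme that starts steroid synthesis in mitochondria, read 192, 358 and 493, differences of 0.90 and 1.36, from a control value just above the floor. Cyp21a1 read 502, 1259 and 863 and was higher at 35 mg/kg by 1.33, with 0.78 at 70 mg/kg. The aldosterone synthase Cyp11b2 read 421, 101 and 118 and was at least 2.23-fold lower at either dose. The 17-hydroxylase Cyp17a1 (94.2, 115 and 117) and the aromatase Cyp19a1 (96.7, 59.3 and 75.7) lay below the floor on every array. Of the adrenal cortex markers, 3 of 5 were on the array. They were the cholesterol carrier Star, at 178, 293 and 449, the adrenal transcription factor Nr5a1, at 260, 537 and 523, and adrenodoxin (Fdx1), at 76.5, 47.2 and 239. Star in the control and Fdx1 in the control and at 35 mg/kg were below the floor. The part of adrenal RNA in the values of Cyp11a1 and Cyp21a1 was not tested.

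Of the genes of bile acids, vitamin D and retinoic acid, Cyp24a1, which inactivates vitamin D, gave opposite readings. One probe set read 3816, 1655 and 1885 and the other 105, 353 and 1247. Its differences of -1.21 and -1.02 rest on the first, and with a floor at the 5th percentile they were 0.27 and 1.28. Cyp27b1, which makes the active form of vitamin D, read 306, 268 and 523. Cyp26b1, the retinoic acid hydroxylase found in vascular smooth muscle, read 127, 124 and 635 and was higher at 70 mg/kg by at least 3.37-fold. Cyp27a1, the mitochondrial sterol hydroxylase, had probe sets reading 292, 251 and 967 and 799, 455 and 305, a median difference of 0.17 at 70 mg/kg. Cyp7a1, the rate-limiting enzyme of bile acid synthesis, read 404, 130 and 223 on 1 probe set and 145, 47.9 and 635 on the other. The first was at least 2.14-fold lower at 35 mg/kg, and at 70 mg/kg its 1 measured probe set differed by -0.86. Cyp7b1 read 53.5, 32.8 and 86.5.

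Agreement between probe sets of 1 gene limits all of these values. Of the 48 genes 28 had a single probe set and 20 had several. At 35 mg/kg 8 P450 genes had several measured probe sets, and those of 5 genes shared a sign. Over all genes of the array with several measured probe sets, 280 of 562 did so. The SD of log2 differences within a gene was 1.33 for the P450 genes, and 1.08 over the 562 such genes of the array. At 70 mg/kg 3 of 7 P450 genes had probe sets of the same sign, beside 237 of 490 genes of the array. The SD there was 1.89 for the P450 genes and 1.40 over the 490 genes. A 2-fold difference, 1 on the log2 scale, is smaller than each of these spreads. Of the 79 P450 probe sets 54 carry a suffix letter that marks probes shared with other transcripts or chosen under relaxed rules, 43 of them the letter s.

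Of the electron donors of the P450 enzymes, Por, Cyb5a, Cyb5b and Fdx1 had their highest level at 70 mg/kg and Cyb5r3 its lowest. The reductase Por had levels of 962, 870 and 1767 and differences of 0.93 at 35 mg/kg (3 probe sets, -0.14 to 1.48) and 2.50 at 70 mg/kg (0.54 to 2.77). Cytochrome b5 (Cyb5a) had levels of 231, 714 and 3169, and its differences were 1.5 at 35 mg/kg (1.18 to 1.83) and 3.48 at 70 mg/kg. The b5 reductase Cyb5r3 differed by 0.36 and -1.10. Of the 5 donors on the array 1 of 3 measured at 35 mg/kg was 2-fold higher and 0 lower, beside 16.8% and 16.3% of all genes. Among 4 measured at 70 mg/kg 2 were higher and 1 lower, beside 19.7% and 23.2% of all genes. Fdx1, the mitochondrial donor, was higher at 70 mg/kg by at least 3.53-fold on 1 of its 2 probe sets, and the other was below the floor on every array.

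Of the enzymes that share arachidonic acid and its products with the P450s, 11 of 14 were on the array. Above the median lay 4, 5 and 8 of them on the control, 35 mg/kg and 70 mg/kg arrays, beside 49.1%, 48.9% and 49.5% of all genes. The epoxide hydrolase Ephx1 read 131, 1096 and 1591, higher by at least 5.82-fold (35 mg/kg) and 8.45-fold (70 mg/kg). Prostacyclin synthase (Ptgis), itself a P450 by structure, read 96.4, 764 and 1134, at least 4.06-fold and 6.02-fold higher. Thromboxane synthase (Tbxas1), another, read 140, 103 and 1076, at least 5.71-fold higher at 70 mg/kg. The soluble epoxide hydrolase Ephx2, which removes the epoxides, had levels of 113, 189 and 2634, and its 2 measured probe sets of 4 were higher at 70 mg/kg by 1.12 and 1.27. The phospholipase Pla2g4a, which releases arachidonic acid, read 639, 1126 and 162, at least 3.39-fold lower at 70 mg/kg. Where these genes could be measured on both arrays, 0 of 5 were higher and 1 lower at 35 mg/kg, beside 16.8% and 16.3% of all genes. At 70 mg/kg 1 of 4 was higher and 0 lower, beside 19.7% and 23.2% of all genes.

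**Figure D4:**
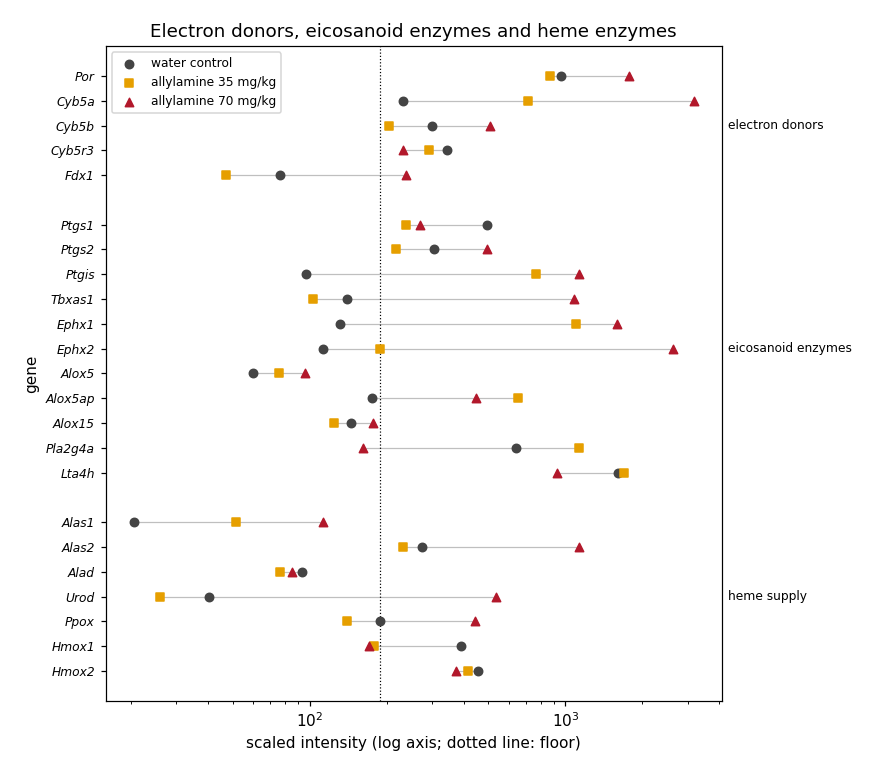
Scaled intensity on a log axis of electron donor, eicosanoid and heme genes on the control (circles), 35 mg/kg (squares) and 70 mg/kg (triangles) arrays, with the floor of 188 dotted. Cyb5a, Ephx1, Ephx2, Ptgis and Tbxas1 have their highest level at 70 mg/kg, and Fdx1, Ephx1, Ephx2, Ptgis and Tbxas1 lie left of the floor in the control.

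Among 11 regulators on the array, 9 were measured at each dose, 3 higher and 3 lower at 35 mg/kg and 3 higher and 1 lower at 70 mg/kg. For all genes compared the shares higher and lower were 16.8% and 16.3% at 35 mg/kg and 19.7% and 23.2% at 70 mg/kg. The vitamin D receptor Vdr had the largest difference, with readings of 3893, 1357 and 314 and differences of -1.52 and -3.63. The aryl hydrocarbon receptor Ahr was higher at 70 mg/kg by 1.78 on 1 of 4 probe sets. The fatty acid receptor Ppara, which induces family 4 in liver, read 665, 204 and 667, differences of -1.70 and 0.00. Of 7 heme enzymes on the array 4 were measured at 70 mg/kg, 2 higher and 1 lower. The erythroid aminolevulinate synthase Alas2 read 275, 231 and 1127, a difference of 2.04 at 70 mg/kg, and Ppox was higher by 1.91. The heme-degrading oxygenase Hmox1 differed by -1.28 and -1.27. Of 7 steroid partner genes none of the 4 measured at 35 mg/kg or the 5 at 70 mg/kg was 2-fold from control, the testicular Hsd17b3 (1087, 640 and 911) coming to -0.77 and the glucocorticoid-regenerating Hsd11b1 (570, 382 and 558) to -0.58 at 35 mg/kg, and Hsd17b1 to 0.79 there.

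P450 genes that lie side by side in the genome were also set beside each other. In the RefSeq gene order of GRCr8, with at most 10 protein-coding genes from one member to the next, they form 7 groups. Beside the counts below, 16.8% of all genes compared were higher and 16.3% lower at 35 mg/kg, and 19.7% and 23.2% at 70 mg/kg. Of Cyp4a8, Cyp4a3, Cyp4a1 and Cyp4b1, 2 were higher and 1 lower at each dose. Of Cyp2d4, Cyp2d3 and Cyp2d2, 1 was higher and 1 lower at each dose. The 9 genes from Cyp2b2 to Cyp2f4 had 2 higher and 0 lower of 5 measured at 35 mg/kg, and 2 higher and 1 lower of 6 at 70 mg/kg. In the group from Cyp2c6v1 to Cyp2c22, none of 3 measured genes was 2-fold from control at 35 mg/kg, and both measured at 70 mg/kg, Cyp2c6v1 and Cyp2c13, were higher. The subfamily 4F group had 2 measured genes at each dose, 0 higher and 1 lower at 70 mg/kg. The group of Cyp3a18, Cyp3a2 and Cyp3a23-3a1 had 1 measured gene and that of Cyp1a2, Cyp1a1 and Cyp11a1 had 2.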

How the data were processed

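Expression was read from the deposited table of probe set intensities for 3 arrays of rat thoracic aorta, 1 per group. The intensities were already scaled between arrays when the authors deposited them; the sources used here do not name their software. The deposited medians were 256 (control), 260 (35 mg/kg) and 284 (70 mg/kg). From the 8799 probe sets 59 control probe sets were left out. Each array was scaled to the mean of the medians, shifting it by 0.06, 0.04 and -0.09 on the log2 scale, and differences were taken as given in the results (Python 3.11.15, numpy 2.4.6, pandas 2.3.3). Symbols came from the platform annotation, and all 48 P450 gene IDs were found in the RefSeq table of GRCr8 with the same symbol. With 1 array per group no test was possible, and precision is limited by the number of arrays. The text names every P450 gene above the array median on at least 1 array, 2-fold different at a dose, with at least 3 probe sets, or of the eicosanoid and steroid groups, and up to 3 partner genes per group by largest difference. A few others are named beside them, chosen after their values were seen. The members and lists were chosen with earlier results of these data known. The calculation was tested on simulated data, with changed genes taken from the brighter ones and the same change in all their probe sets. Noise there was smaller than the spread between probe sets of a gene, so the test checked arithmetic and not the reliability of differences. Alternatives were other scalings, floors, probe set rules and fold thresholds.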

Additional observations from a re-analysis of the deposited data

How the results depend on the processing

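The counts above the array median kept within 1.5 times of 25 with the brightest probe set and the mean over probe sets. Quantile normalization keeps the order of probe sets within an array, so it could hardly change these counts and is no check on them. Without suffixed probe sets the counts were 6 (control), 9 (35 mg/kg) and 8 (70 mg/kg) of 22 genes. The median difference at 35 mg/kg, 0.77, was 0.43 with the deposited values and with quantile normalization, 0.44 with a common trimmed mean, 0.41 (5th percentile) and 0.42 (25th percentile) with lower floors, and 0.00 with low values raised to the floor, which also gave 0.00 at 70 mg/kg; that setting was chosen after the data had been seen. At 35 mg/kg the lower genes numbered 7 with a floor at the 5th percentile (15.9%, beside 22.2% of all genes). With one at the 55th they numbered 2 (9.09%, beside 15.2%). At 70 mg/kg the floor at the 55th percentile gave 5 higher (27.8%, beside 15.8% of all genes) and 2 lower (11.1%, beside 20.5%) of 18 genes. Without suffixed probe sets 3 of 9 genes were higher at 35 mg/kg (33.3%, beside 15.9% of all genes) and 2 lower (22.2%, beside 18.2%). At 70 mg/kg 2 of 8 were higher (25%, beside 18.3%) and 3 lower (37.5%, beside 25%). At 1.5-fold, 15 were higher at 35 mg/kg (51.7%, beside 28.8% of all genes) and 10 lower at 70 mg/kg (33.3%, beside 33.8%). At 3-fold, 1 was higher (3.45%, beside 6.45%) and 1 lower (3.45%, beside 6.18%) at 35 mg/kg. At 70 mg/kg 5 were 3-fold higher (16.7%, beside 8.65%) and 2 lower (6.67%, beside 12.2%). Of 27 gene differences of at least 2-fold, 3 changed sign. Cyp24a1 was at 0.27 (35 mg/kg) and 1.28 (70 mg/kg) with a floor at the 5th percentile and at 0.85 (70 mg/kg) with low values raised; Cyp2c13 at 70 mg/kg was at -0.01 with either lower floor. In each of these a further probe set of the gene came in. No floor or probe set rule can change the sign for a gene with 1 probe set. Settings that left a gene unmeasured were not counted. Other differences kept their sign but fell below 2-fold, such as Cyp2a1 at 35 mg/kg, at 0.33 with quantile normalization. With a floor at the 5th percentile Cyp3a23-3a1 at 35 mg/kg was at 0.45 and Cyp2c6v1 at 70 mg/kg at 0.67. The cause of the other shifts was not tested. No paired analysis was possible because each group had 1 array. Differences near the floor are limited by signal over background, which the deposited values do not separate.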
